A study of Rattus norvegicus with 24 samples.

Results

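The dentate gyrus of old rats was compared with that of young rats by setting the mean of the aged groups against the young group. The comparison used 21 of the 24 arrays of the series. They came from 8 young, 6 aged unimpaired and 7 aged impaired rats, and the aged groups were weighted equally so that neither decided the aged mean by its size. All were male Long-Evans rats, without treatment, housed singly under a 12 hour light and 12 hour dark cycle. Young rats were 6 months old. Aged rats were bought at 8 to 9 months and kept until 24 to 26 months. Spatial learning was scored in the Morris water maze, in which a rat learns where a submerged platform lies. Aged rats that scored inside the young range are called unimpaired and those that scored worse impaired. The dentate gyrus was dissected 2 weeks after testing, total RNA was hybridized to Affymetrix Rat Genome 230 2.0 arrays, and each array is labelled a biological replicate. The submitters omitted 1 array per group after quality control, and those columns hold no values. The labels give no hybridization batch, so a batch effect and the age groups cannot be told apart. Young replicate 9 stands among the unimpaired arrays in the order of the series but is young by each of its labels, and it was used as young.

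The dentate gyrus receives the input of the entorhinal cortex and passes it to field CA3 through the mossy fibres of its granule neurons. It is among the few places of the adult mammalian brain where neurons are still born, from precursors in the subgranular zone, and this production is known to decline steeply with age. In the ageing brain as a whole, microglia and astrocytes are known to take on reactive gene expression, and oligodendrocytes and brain vessels change as well. A measurement on whole tissue mixes these cell types: fewer cells of a type and less RNA per cell cannot be told apart.

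Prox1, the transcription factor that marks granule neurons, measured 10.55 to 11.05 (median 10.82) in the young, 10.62 to 10.94 (median 10.80) in the unimpaired and 10.58 to 10.93 (median 10.82) in the impaired group on the log2 scale. Its difference, aged minus young, was -0.05 ± 0.06 (SE; adjusted p = 0.764, limma). Calb1, the calcium-binding protein calbindin of mature granule neurons, differed by -0.17 ± 0.06 (adjusted p = 0.176), and Dsp, the desmosome protein desmoplakin that is enriched in granule neurons, by 0.70 ± 0.20 (adjusted p = 0.0916). These markers of the labelled tissue were above the filter level in every group. Of the other listed granule neuron genes, Calb2, Tdo2, Pdzd2 and Adra1a did not pass the filter on level. C1ql2, Npnt and Lct have no probe set with their symbol. Array medians ranged from 3.77 to 3.84, and 48.3% to 48.8% of the probe sets of an array lay above a log2 level of 4. A tested probe set had a median SD of 0.132 over the young, 0.124 over the unimpaired and 0.118 over the impaired arrays. Marker lists for the granule neuron, CA3, CA1, meninges, choroid plexus and blood cells (2 to 19 measured genes each) did not pass the threshold between aged and young arrays (adjusted p = 0.79 for each, two-sided permutation test of arrays). The mean of 22 meningeal markers was 4.61 on impaired replicate 2, 4.29 on impaired replicate 3, 3.79 on impaired replicate 7 and 3.76 on young replicate 5. It did not exceed 3.58 elsewhere. Results are therefore also given without these 4 arrays, and the part of meningeal RNA in them was not tested otherwise. The mean of 3 choroid plexus markers was 9.19 on young replicate 2, 8.98 on impaired replicate 7 and 8.65 on unimpaired replicate 3. On the other arrays it did not exceed 7.97. Young replicate 2 and unimpaired replicate 3 stayed in the fits without the 4 arrays, and the part of choroid plexus RNA was not tested.

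Of 15177 probe sets tested, 168 (1.11%) were called at an adjusted p below 0.05 by limma, with Benjamini-Hochberg adjustment over all of them. Of these, 61 (0.402%) were higher and 107 (0.705%) lower in aged rats. They hold 121 genes with a single symbol, 44 higher and 77 lower. The median called rise was 0.39 and the median called fall was -0.30 on the log2 scale, and 6 rises and 2 falls reached 2-fold. Of these 6 rises, those of Acer2, C3 and Pcdhb17 start from young levels near the filter level, so their size is uncertain. The fall of Glra2 ends near that level in aged rats, so its size is uncertain too. Each of 54 of the 61 higher probe sets lay above the young mean on 13 of 13 aged arrays, and 85 of the 107 lower ones lay below it on 13 of 13. The calls were made with these same arrays, so these counts describe the calls and test nothing. For comparison, the median absolute difference over all probe sets was 0.0571, and 79.6% had a 95% interval of the difference within ±0.3. Of 10 genes with more than 1 called probe set, 0 had calls of opposite sign. Another 44 tested probe sets measured 29 of the called genes, and 38 of them had the sign of the call. None of the 44 was called, and 21 had an unadjusted p below 0.05. The values nearest the threshold were an adjusted p of 0.0495 inside and 0.0501 outside.

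**Figure D1:**
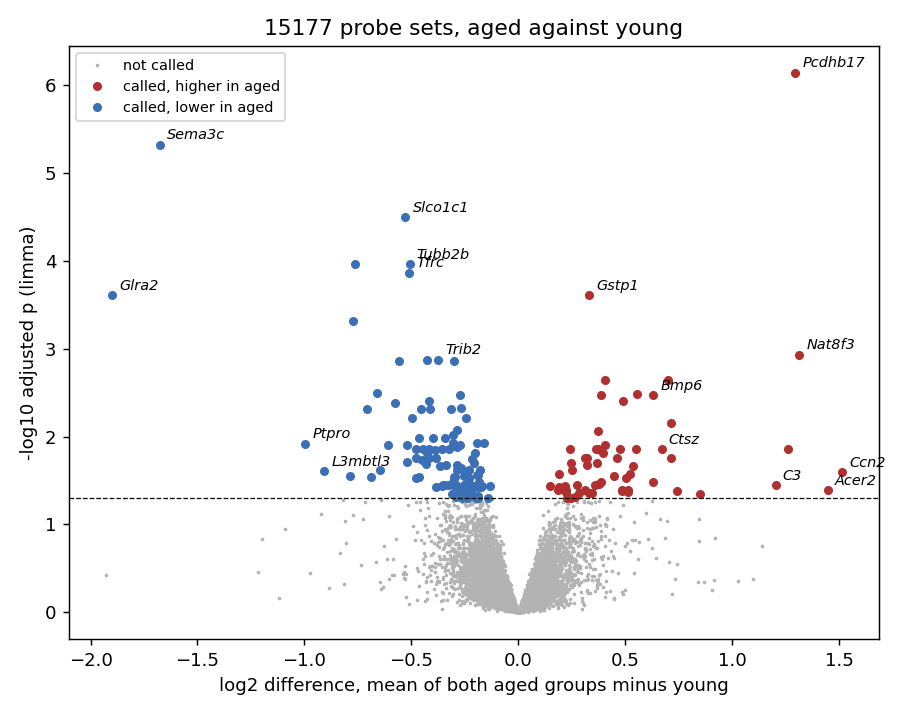
Log2 difference between the mean of both aged groups and young rats (x axis) against -log10 of limma's adjusted p (y axis) for 15177 probe sets. The 61 probe sets called higher are red, the 107 called lower are blue, the dashed line marks an adjusted p of 0.05, and Pcdhb17 and Sema3c lie highest on either side.

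The number of calls depended on scaling and on single arrays. Of the calls, 36.3% were higher as deposited, 57.1% after each array was centred on its median (116 higher, 87 lower) and 53.6% after quantile normalization (126 higher, 109 lower). These settings moved the median of all probe sets from -0.01 to 0.01 and 0.00. Without young replicate 6 the count was 89, without young replicate 9 it was 91, and without the 4 arrays highest in meningeal markers it was 86, of which 71 were among the 168. The higher calls alone numbered 40 without impaired replicate 1 or unimpaired replicate 3 or 6, and 33 to 38 without young replicate 2, 6, 7 or 9. They numbered 98 without young replicate 5. The lower calls numbered 56 without young replicate 6 or young replicate 9 and 52 without the 4 arrays.

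Complete separation was rarer than a call. In 3 probe sets (0.0198% of those tested) all 13 aged arrays lay above all 8 young arrays, and in 10 (0.0659%) all lay below. The 3 higher ones measured Pcdhb17, Gfap and Gstp1. Pcdhb17 passed the filter on level only through the aged arrays. The 10 lower ones measured Sema3c, Sox4, Slco1c1, Tfrc, Tubb2b, Mpzl1, Ralyl, Nfasc and Ggh, and 1 has no gene symbol. Together they numbered 20 without impaired replicate 7, 25 without young replicate 1 and 26 without young replicate 5. Without the 4 arrays highest in meningeal markers they numbered 36. Fewer arrays make separation easier to meet, and the part of meningeal RNA in these counts was not tested.

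**Figure D2:**
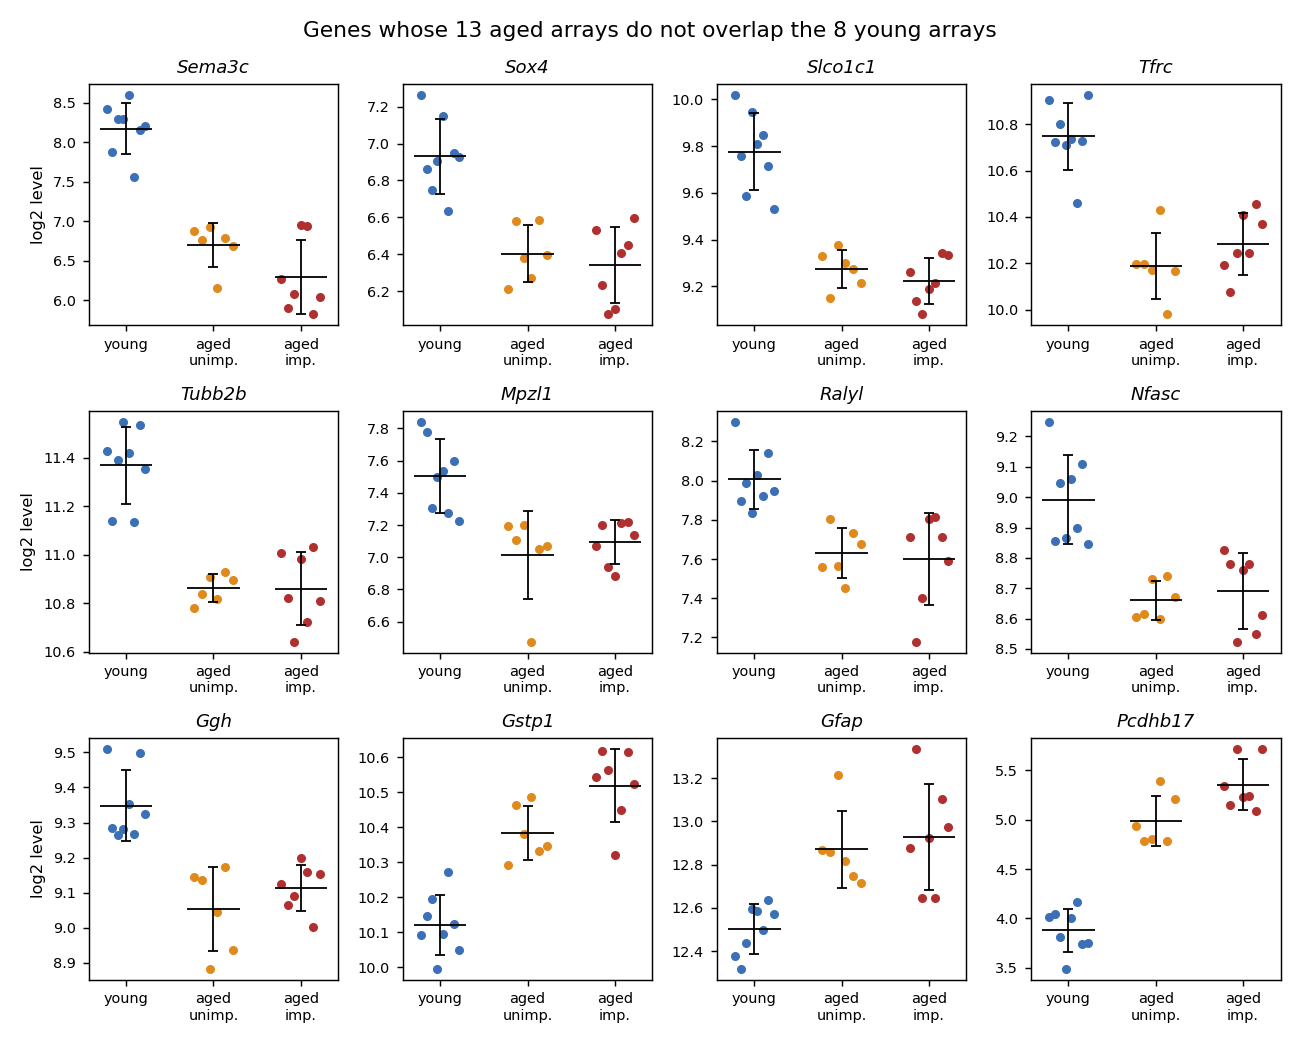
Log2 level (y axis, each panel on its own scale) on every array for the 12 genes in which aged and young arrays did not overlap. Points are arrays, horizontal lines group means and error bars SD (n = 8 young, 6 aged unimpaired, 7 aged impaired). Pcdhb17, Gfap and Gstp1 lie above every young array and the other 9 genes below.

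Of 12 measured genes of neuronal precursors and immature neurons, 0 rose and 3 fell. Tubb2b, a beta-tubulin abundant in developing neurons, measured 11.13 to 11.55 (median 11.40) in the young, 10.78 to 10.93 (median 10.87) in the unimpaired and 10.64 to 11.03 (median 10.82) in the impaired group. It fell by 0.51 ± 0.06 (adjusted p = 0.000108), with the same mean difference of -0.51 in each aged group. Sox4, a transcription factor of differentiating neurons, measured 8.66 to 9.43 (median 8.94) in the young, 8.11 to 8.84 (median 8.56) in the unimpaired and 8.10 to 8.64 (median 8.48) in the impaired group and fell by 0.52 ± 0.10 (adjusted p = 0.0124). A second Sox4 probe set, in which the groups did not overlap, fell by 0.56 ± 0.08 (adjusted p = 0.00138). Nrep, which encodes the small neuronal protein P311, measured 9.97 to 10.43 (median 10.16) in the young, 9.51 to 9.85 (median 9.75) in the unimpaired and 9.45 to 10.06 (median 9.85) in the impaired group and fell by 0.42 ± 0.07 (adjusted p = 0.00389), with 12 of 13 aged arrays below the young range. Among all 8737 genes, with 1 probe set each, 0.458% were called higher, 0.824% lower and 1.28% in either direction, and the counts of every list below stand against these shares. All 12 differences of the precursor list were negative, with a median of -0.17, where 43.1% of all genes were positive and their median was -0.01. Among members that were not called, the stem cell factor Sox2 differed by -0.19 ± 0.06 (adjusted p = 0.15), the Notch target Hes5 by -0.29 ± 0.12 (adjusted p = 0.269), the radial glial Fabp7 by -0.24 ± 0.09 (adjusted p = 0.22) and the neuronal tubulin Tubb3 by -0.15 ± 0.04 (adjusted p = 0.0566). Of the 28 listed genes with a probe set, 16 did not pass the filter on level and are not described by these counts.

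Of 31 measured axon guidance genes 0 rose and 2 fell. Sema3c, a secreted semaphorin, measured 7.56 to 8.60 (median 8.25) in the young, 6.16 to 6.92 (median 6.78) in the unimpaired and 5.83 to 6.95 (median 6.08) in the impaired group. No aged array reached the lowest young array, and the level was 3.2 times lower (difference -1.68 ± 0.16, adjusted p = 4.74e-06). Plxna4, a plexin through which class 3 semaphorins signal, measured 9.15 to 9.48 (median 9.37) in the young, 8.86 to 9.33 (median 9.12) in the unimpaired and 8.74 to 9.15 (median 9) in the impaired group and fell by 0.30 ± 0.07 (adjusted p = 0.029). Another tested Plxna4 probe set differed by only -0.09, without an unadjusted p below 0.05. The call of Plxna4 was lost without young replicates 6, 7 or 9 or aged unimpaired replicate 3 (adjusted p of 0.0507 to 0.0718) and without the 4 arrays (adjusted p = 0.0597). Of the 31 genes 9 were positive and the median was -0.04. The semaphorin co-receptors Nrp1 and Nrp2 differed by -0.12 ± 0.07 (adjusted p = 0.461) and -0.18 ± 0.10 (adjusted p = 0.39). Nfasc, the adhesion molecule neurofascin of axon initial segments and nodes of Ranvier, measured 8.85 to 9.25 (median 8.97) in the young, 8.60 to 8.74 (median 8.64) in the unimpaired and 8.52 to 8.83 (median 8.76) in the impaired group and fell by 0.32 ± 0.05 (adjusted p = 0.0049). Of 3 other tested Nfasc probe sets, which ranged from -0.31 to 0.14, only 1 had the same sign, so the fall is that of this probe set and not of every Nfasc transcript measured.

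Of 18 measured cadherins and protocadherins 2 rose and 0 fell. The clustered protocadherin Pcdhb17, an adhesion molecule of neurons, had the smallest adjusted p of all 15177 probe sets. It measured 3.49 to 4.17 (median 3.90) in the young, 4.79 to 5.40 (median 4.87) in the unimpaired and 5.09 to 5.72 (median 5.24) in the impaired group, and exceeded the filter level of 4 on 3 of 8 young and 13 of 13 aged arrays. It therefore entered the test, and the count of the list, only through the aged arrays, and no fold is given. It rose by 1.29 ± 0.10 (adjusted p = 7.25e-07), with a larger mean in impaired rats (1.48) than in unimpaired rats (1.11). Protocadherin beta genes are close paralogs and a probe set may bind several of them. Cdh13, the membrane-anchored T-cadherin, measured 9.56 to 9.95 (median 9.72) in the young, 9.90 to 10.30 (median 10.15) in the unimpaired and 9.74 to 10.22 (median 10.12) in the impaired group and rose by 0.38 ± 0.07 (adjusted p = 0.0086), a call lost without the 4 arrays (adjusted p = 0.0594). Over the list 13 differences were negative and the median was -0.08. Pcdhb19 differed by 0.03 ± 0.08 (adjusted p = 0.907).

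Of 26 measured oligodendrocyte and myelin genes 1 rose and 5 fell. Ugt8, which makes the galactolipids of myelin, measured 5.70 to 6.75 (median 6.32) in the young, 4.47 to 5.76 (median 5.45) in the unimpaired and 5.05 to 6.09 (median 5.54) in the impaired group and fell by 0.78 ± 0.17 (adjusted p = 0.028). The myelin membrane protein Mal measured 8.86 to 9.32 (median 9.03) in the young, 8.10 to 8.73 (median 8.37) in the unimpaired and 8.27 to 9.06 (median 8.75) in the impaired group and fell by 0.48 ± 0.09 (adjusted p = 0.0139). Both overlapped the young range. Cldn11, which forms the tight junctions of myelin sheaths, fell by 0.43 ± 0.09 (adjusted p = 0.0154), the oligodendrocyte receptor Gpr37 fell by 0.34 ± 0.06 (adjusted p = 0.0104), and the tetraspanin Tspan2 fell by 0.34 ± 0.07 (adjusted p = 0.0213). The mean falls were -0.63 (Mal), -0.64 (Cldn11), -0.43 (Gpr37) and -0.45 (Tspan2) in unimpaired against -0.32, -0.22, -0.25 and -0.22 in impaired rats. The differences between the aged groups did not pass the adjusted threshold (adjusted p of 0.138 to 0.306). Qdpr, an enzyme that regenerates tetrahydrobiopterin, rose by 0.36 ± 0.08 (adjusted p = 0.0352) and is named because it is the only listed member that did. Of the 26 genes 9 were positive and the median was -0.09. By aged group the list median was -0.13 in unimpaired and 0.04 in impaired rats. The major myelin protein genes Mbp and Mobp differed by -0.01 ± 0.06 (adjusted p = 0.936) and 0.03 ± 0.07 (adjusted p = 0.874). With the 13 aged arrays as 1 group the calls of Cldn11 (adjusted p = 0.085) and Tspan2 (adjusted p = 0.0507) were lost, so they depended on the equal weight of the aged groups. Tspan2 was also lost without a filter on level (adjusted p = 0.0501). The call of Ugt8 was lost without young replicates 2, 3, 4, 6 or 9 (adjusted p of 0.0541 to 0.0691) and without the 4 arrays (adjusted p = 0.0597).

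Oligodendrocyte precursor genes showed no call: of 11 measured, 0 rose and 0 fell by limma's adjusted p, while 7 had an unadjusted p below 0.05. Of all probe sets tested for age, 2214 (14.6%) had one, and every such count below stands against this share. Of these 11, 8 were negative and the median was -0.18. The proteoglycan Vcan differed by -0.43 ± 0.11 (adjusted p = 0.0562), the lineage factor Sox10 by -0.28 ± 0.08 (adjusted p = 0.112) and the growth factor receptor Pdgfra by -0.18 ± 0.06 (adjusted p = 0.167). The median was -0.24 in unimpaired and -0.06 in impaired rats.

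Of 28 measured endothelial and blood-brain barrier genes 0 rose and 3 fell. Slco1c1, which carries thyroxine across brain vessels and into astrocytes, measured 9.53 to 10.02 (median 9.78) in the young, 9.15 to 9.38 (median 9.29) in the unimpaired and 9.08 to 9.34 (median 9.22) in the impaired group. Its groups did not overlap and it fell by 0.53 ± 0.06 (adjusted p = 3.16e-05). Tfrc, the transferrin receptor by which cells and brain vessels take up iron, measured 10.46 to 10.93 (median 10.73) in the young, 9.98 to 10.43 (median 10.18) in the unimpaired and 10.07 to 10.46 (median 10.24) in the impaired group and fell by 0.51 ± 0.06 (adjusted p = 0.000136), also without overlap. The cationic amino acid transporter Slc7a1 measured 8.54 to 9.02 (median 8.76) in the young, 8.29 to 8.57 (median 8.45) in the unimpaired and 8.32 to 8.69 (median 8.45) in the impaired group and fell by 0.32 ± 0.06 (adjusted p = 0.014), a call lost without the 4 arrays (adjusted p = 0.06). Of the 28 genes 22 were negative and the median was -0.06. The junction gene Cldn5 differed by -0.08 ± 0.07 (adjusted p = 0.639), the glucose transporter Slc2a1 by 0.15 ± 0.07 (adjusted p = 0.355) and the angiopoietin receptor Tek by -0.29 ± 0.07 (adjusted p = 0.0531). Tfrc was the only called gene of 10 measured genes of iron handling, and the iron regulatory protein genes Aco1 and Ireb2 differed by -0.16 ± 0.05 (adjusted p = 0.103) and -0.08 ± 0.05 (adjusted p = 0.467). The mural cell list had 0 calls by limma among 8 measured genes, and 0 at an unadjusted p below 0.05.

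Of 20 measured basement membrane and matrix genes 1 rose and 2 fell. The rest of the 39 listed genes on the array did not pass the filter on level. Col4a5, a collagen IV chain, measured 4.80 to 5.92 (median 5.13) in the young, 4.18 to 4.87 (median 4.81) in the unimpaired and 3.88 to 4.84 (median 4.39) in the impaired group and fell by 0.69 ± 0.15 (adjusted p = 0.029). Nid1, which links laminin to collagen IV, measured 5.36 to 6.62 (median 5.84) in the young, 4.69 to 5.18 (median 5.10) in the unimpaired and 5.10 to 5.83 (median 5.19) in the impaired group and fell by 0.65 ± 0.14 (adjusted p = 0.024). Ccn2, the matricellular connective tissue growth factor, measured 4.58 to 7.47 (median 5.85) in the young, 6.28 to 7.61 (median 7.05) in the unimpaired and 6.95 to 9.22 (median 7.58) in the impaired group and rose by 1.52 ± 0.33 (adjusted p = 0.0256), 2.86-fold. Its highest values were 9.22 and 8.76 on impaired replicates 2 and 3, the arrays highest in meningeal markers, and the highest young value was 7.47 on young replicate 5. Without the 4 arrays the Ccn2 difference was 1.44 (adjusted p = 0.00565). Only 5 of 13 aged arrays exceeded the young range, although 13 of 13 exceeded the young mean. The calls of Ccn2 were lost without young replicates 3, 6 or 9 (adjusted p of 0.0545 to 0.0624), those of Nid1 without young replicate 3 (adjusted p = 0.051), and those of Col4a5 without young replicates 3, 4, 7 or 9 (adjusted p of 0.0505 to 0.0713) or the 4 arrays (adjusted p = 0.0579). The partner chains Col4a1 and Col4a2 differed by -0.11 ± 0.08 (adjusted p = 0.564) and 0.00 ± 0.09 (adjusted p = 0.994).

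Of 15 measured microglial and macrophage genes 3 rose and 0 fell. The rest of the 32 listed genes on the array did not pass the filter on level. Cd302, a C-type lectin receptor, measured 8.90 to 9.88 (median 9.42) in the young, 9.67 to 10.48 (median 9.98) in the unimpaired and 9.98 to 10.29 (median 10.12) in the impaired group and rose by 0.70 ± 0.11 (adjusted p = 0.00227). Mpeg1, the macrophage pore-forming protein perforin-2, measured 8.78 to 9.44 (median 9.18) in the young, 9.37 to 9.76 (median 9.40) in the unimpaired and 9.53 to 10.03 (median 9.76) in the impaired group and rose by 0.49 ± 0.08 (adjusted p = 0.00389). Fcer1g, the signalling chain of Fc receptors, rose by 0.38 ± 0.09 (adjusted p = 0.035). In each of these the 13 aged arrays lay above the young mean and some lay inside the young range. Of the 15 genes 13 were positive and the median was 0.25, with 0.31 in impaired and 0.16 in unimpaired rats. The homeostatic microglial genes Tmem119, P2ry12 and Csf1r differed by 0.00 ± 0.11 (adjusted p = 0.993), 0.07 ± 0.11 (adjusted p = 0.828) and 0.06 ± 0.09 (adjusted p = 0.801), and Gpnmb, a glycoprotein of phagocytic cells, by 0.62 ± 0.16 (adjusted p = 0.0547). Fcer1g was called in 11 of 21 fits that left out 1 array and was lost without young replicates 1, 2, 6, 7 or 9 or aged unimpaired replicates 4, 6 or 8 or aged impaired replicates 1 or 3 (adjusted p of 0.0511 to 0.0828) and without the 4 arrays (adjusted p = 0.101). Cd83, a surface protein of activated antigen-presenting cells, measured 6.93 to 7.33 (median 7.08) in the young, 7.31 to 7.73 (median 7.59) in the unimpaired and 7.15 to 7.99 (median 7.70) in the impaired group and rose by 0.46 ± 0.09 (adjusted p = 0.0177; 0.119 without the 4 arrays).

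Of 9 measured complement genes 2 rose and 0 fell, 8 were positive and the median was 0.08. C3, the central component of the cascade, measured 3.41 to 4.95 (median 3.99) in the young, 4.61 to 5.93 (median 5.67) in the unimpaired and 4.22 to 6.15 (median 4.51) in the impaired group and rose by 1.20 ± 0.28 (adjusted p = 0.0359). It exceeded the filter level of 4 on 3 of 8 young arrays and so entered the test, and the count of the list, only through the 13 aged arrays. C1qa, a chain of the recognition molecule C1q, measured 8.98 to 9.71 (median 9.22) in the young, 9.55 to 9.92 (median 9.75) in the unimpaired and 9.41 to 10.02 (median 9.60) in the impaired group and rose by 0.45 ± 0.10 (adjusted p = 0.028). The other C1q chains C1qb and C1qc differed by 0.07 ± 0.16 (adjusted p = 0.886) and 0.26 ± 0.12 (adjusted p = 0.322). The call of C1qa was lost without young replicates 2, 6, 7 or 9 (adjusted p of 0.0563 to 0.069). That of C3 held in 10 of 21 fits and was lost without young replicates 1, 2, 4, 6, 7 or 9 or aged unimpaired replicates 3, 4, 6 or 8 or aged impaired replicate 2 (adjusted p of 0.0502 to 0.0878). Antigen presentation and interferon response genes had 0 calls by limma's adjusted p among 6 measured, with 2 at an unadjusted p below 0.05. All 6 were positive and the median was 0.23, but 27 of the 33 listed genes on the array did not pass the filter on level.

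Of 34 measured lysosomal genes 2 rose and 0 fell. Ctsz, the protease cathepsin Z, measured 5.07 to 6.02 (median 5.46) in the young, 5.73 to 6.52 (median 6.08) in the unimpaired and 5.86 to 6.60 (median 6.30) in the impaired group and rose by 0.67 ± 0.13 (adjusted p = 0.0139). Npc2, which carries cholesterol out of lysosomes, measured 10.14 to 10.47 (median 10.28) in the young, 10.54 to 10.80 (median 10.58) in the unimpaired and 10.39 to 10.99 (median 10.64) in the impaired group and rose by 0.32 ± 0.07 (adjusted p = 0.0177). For each, 11 of 13 aged arrays lay above the young range. Of the 34 genes 26 were positive and the median was 0.07, and 28 had a 95% interval within ±0.3. The cathepsins Ctss, Ctsd and Ctsb differed by 0.26 ± 0.07 (adjusted p = 0.0611), 0.16 ± 0.05 (adjusted p = 0.16) and 0.09 ± 0.04 (adjusted p = 0.293).

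Gfap, the intermediate filament of astrocytes, measured 12.32 to 12.64 (median 12.54) in the young, 12.71 to 13.21 (median 12.84) in the unimpaired and 12.64 to 13.34 (median 12.92) in the impaired group and rose by 0.40 ± 0.08 (adjusted p = 0.0154) with no overlap of aged and young arrays. It was the only one of 29 measured astrocyte genes that rose, and Slco1c1, counted above among vascular genes, the only one that fell. The median of the list was 0.00, and 23 of the 29 had an interval within ±0.3. Aqp4, the water channel of astrocyte endfeet, differed by -0.05 ± 0.06 (adjusted p = 0.758), the glutamate transporter Slc1a2 by -0.06 ± 0.08 (adjusted p = 0.788) and the filament gene Vim by 0.24 ± 0.25 (adjusted p = 0.706).

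Of 32 measured glutathione and antioxidant genes 2 rose and 0 fell. Gstp1, a glutathione S-transferase, measured 10 to 10.27 (median 10.11) in the young, 10.29 to 10.49 (median 10.36) in the unimpaired and 10.32 to 10.62 (median 10.54) in the impaired group, and its smallest aged value exceeded its largest young value. It rose by 0.33 ± 0.04 (adjusted p = 0.000246). Mgst1, the microsomal transferase, measured 5.67 to 7.31 (median 6.97) in the young, 6.91 to 7.91 (median 7.62) in the unimpaired and 7.05 to 7.80 (median 7.59) in the impaired group and rose by 0.74 ± 0.18 (adjusted p = 0.0421), a call kept in 5 of 21 fits that left out 1 array. Those were the fits without young replicates 1, 2 or 5 or unimpaired replicate 8 or impaired replicate 8, and it was lost otherwise (adjusted p of 0.051 to 0.087) and without the 4 arrays (adjusted p = 0.0949). Of the 32 genes 16 were positive and the median was 0.01. Glutathione transferases are a family of paralogs, so probe sets may share targets. Nfe2l2, the transcription factor that drives many of them, differed by 0.13 ± 0.06 (adjusted p = 0.306), and the superoxide dismutases Sod1 and Sod2 by 0.04 ± 0.04 (adjusted p = 0.646) and 0.03 ± 0.04 (adjusted p = 0.771). Psme1, a subunit of the PA28 proteasome activator, rose by 0.25 ± 0.05 (adjusted p = 0.0237) as the only called gene of 34 measured proteasome genes, lost without young replicate 6 (adjusted p = 0.0539) and without the 4 arrays (adjusted p = 0.0502).

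The promoters of some genes with separated groups, not picked by a rule, are shown because sequence is a property the calls did not use. Each is the 250 bases before the annotated start in RefSeq's GRCr8 assembly, written 5′ to 3′ on the strand of the gene, and capitals mark the motifs found. Gstp1 lies at chr1:210769706-210769955 (minus strand), Gfap at chr10:88361662-88361911 (minus strand) and Tubb2b at chr17:30952836-30953085 (plus strand).
Gstp1: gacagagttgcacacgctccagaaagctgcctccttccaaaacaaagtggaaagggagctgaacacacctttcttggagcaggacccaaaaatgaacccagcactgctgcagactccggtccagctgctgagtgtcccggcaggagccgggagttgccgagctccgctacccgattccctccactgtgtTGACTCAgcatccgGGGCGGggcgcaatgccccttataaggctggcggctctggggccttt
Gfap: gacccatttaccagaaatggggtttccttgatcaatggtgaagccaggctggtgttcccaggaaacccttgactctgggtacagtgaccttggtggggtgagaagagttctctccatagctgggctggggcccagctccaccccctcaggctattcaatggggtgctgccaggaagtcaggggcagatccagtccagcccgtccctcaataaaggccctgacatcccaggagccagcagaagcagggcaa
Tubb2b: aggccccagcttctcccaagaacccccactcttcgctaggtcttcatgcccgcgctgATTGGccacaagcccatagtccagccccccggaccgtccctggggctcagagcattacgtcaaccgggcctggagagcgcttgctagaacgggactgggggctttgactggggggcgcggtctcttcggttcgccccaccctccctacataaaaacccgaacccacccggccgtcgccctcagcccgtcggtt
The Gstp1 window held an AP-1 motif (TGANTCA) that begins 61 bases before the start and a GC box (GGGCGG) that begins 47 bases before it. The Tubb2b window held a CCAAT box (CCAAT) on the opposite strand, 193 bases before the start, and the Gfap window held none of the motifs searched. Both strands were searched for these 3 motifs, for TATAAA and for the CRE (TGACGTCA), and none of these words contains another. The Sema3c window, examined but not printed, held none of these motifs and had a GC content of 35.2%. RefSeq promoters were matched for 33 of the 44 higher genes, 68 of the 77 lower genes and 7333 of the 8737 tested genes. The AP-1 motif was in 6.06% of the higher, 2.94% of the lower and 3.82% of all promoters. The CCAAT box was in 48.5%, 35.3% and 35.6%, the GC box in 60.6%, 58.8% and 61.6%, and TATAAA in 9.09%, 8.82% and 5.76%. The CRE was in 0 of 33 higher and 0 of 68 lower promoters and in 3.16% of all. Median GC content was 59.6%, 64.6% and 61.2%. These shares are descriptions without a test.

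The largest called fall was in a neurotransmitter receptor gene. Glra2, a glycine receptor subunit most abundant in the developing brain, measured 5.10 to 7.26 (median 6.39) in the young, 3.19 to 5.01 (median 3.96) in the unimpaired and 4.35 to 5.35 (median 4.44) in the impaired group. All aged arrays but 1 lay below the young range, and the level was 3.73 times lower (difference -1.90 ± 0.24, adjusted p = 0.000246). It was the only called gene of 13 measured inhibitory receptor genes, whose median was -0.06. The glycine receptor subunit Glrb differed by -0.08 ± 0.05 (adjusted p = 0.521), and the GABA receptor subunit Gabrd of granule neurons by 0.00 ± 0.06 (adjusted p = 0.992). Of 16 measured ionotropic glutamate receptor genes 0 were called by limma, with 6 at an unadjusted p below 0.05 (14.6% of all probe sets) and in both directions. The AMPA receptor gene Gria1 differed by -0.26 ± 0.08 (adjusted p = 0.133) and the scaffold gene Shank2 by -0.15 ± 0.04 (adjusted p = 0.0684), while the AMPA receptor auxiliary gene Cacng3 differed by 0.28 ± 0.08 (adjusted p = 0.111) and the kainate receptor gene Grik2 by 0.16 ± 0.06 (adjusted p = 0.206).

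Pdyn, the precursor of the dynorphin opioid peptides of granule neurons, measured 10.01 to 10.44 (median 10.31) in the young, 10.34 to 10.84 (median 10.65) in the unimpaired and 10.39 to 10.77 (median 10.65) in the impaired group and rose by 0.36 ± 0.07 (adjusted p = 0.0138). It was the only called gene of 19 measured granule neuron genes, of which 8 were positive. Penk, the enkephalin precursor, differed by 0.60 ± 0.16 (adjusted p = 0.0743) and Plk5 by 0.35 ± 0.10 (adjusted p = 0.0938). The other 11 were negative, with C1ql3 at -0.27 ± 0.10 (adjusted p = 0.187) and Rfx3 at -0.26 ± 0.08 (adjusted p = 0.106). The median of the list was -0.01. None of 11 measured interneuron genes was called by limma, with 1 at an unadjusted p below 0.05, and Sst, Npy and Pvalb differed by -0.05 ± 0.14 (adjusted p = 0.894), 0.04 ± 0.07 (adjusted p = 0.857) and 0.13 ± 0.07 (adjusted p = 0.443).

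Of 25 measured genes of BMP and TGF-beta signalling 1 rose and 3 fell. Bmp6, a ligand, measured 6.93 to 7.59 (median 7.07) in the young, 7.56 to 7.88 (median 7.66) in the unimpaired and 7.55 to 8.37 (median 7.96) in the impaired group and rose by 0.63 ± 0.10 (adjusted p = 0.00339), with 10 of 13 aged arrays above the young range. Gdf11, another ligand of the family, fell by 0.22 ± 0.04 (adjusted p = 0.018), and the activin type 2 receptor Acvr2a fell by 0.30 ± 0.07 (adjusted p = 0.034). Fstl5, a secreted follistatin-like protein, measured 7.50 to 8.50 (median 8.11) in the young, 7.25 to 7.67 (median 7.47) in the unimpaired and 7.25 to 7.92 (median 7.52) in the impaired group and fell by 0.61 ± 0.12 (adjusted p = 0.0124). Of the 25 genes 10 were positive and the median was -0.06. The direct BMP targets Id1, Id2, Id3 and Id4 differed by 0.10 ± 0.14 (adjusted p = 0.774), 0.13 ± 0.09 (adjusted p = 0.525), 0.03 ± 0.13 (adjusted p = 0.948) and 0.28 ± 0.09 (adjusted p = 0.135). Without the 4 arrays Gdf11 had an adjusted p of 0.0939 and Acvr2a one of 0.108. Both calls were also lost after median centring (adjusted p = 0.0532 and 0.051). Acvr2a was kept in 13 of 21 fits and lost without young replicates 3, 6 or 9 or aged unimpaired replicates 3, 7 or 8 or aged impaired replicates 2 or 3 (adjusted p of 0.0503 to 0.0795).

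Of 23 measured growth factor and neurotrophin genes 0 rose and 2 fell, with a median of -0.06. Ptn, the heparin-binding cytokine pleiotrophin, measured 11.12 to 11.68 (median 11.33) in the young, 10.60 to 11.07 (median 10.89) in the unimpaired and 10.89 to 11.44 (median 11.17) in the impaired group and fell by 0.36 ± 0.08 (adjusted p = 0.0219). Fgf9, a fibroblast growth factor made by neurons, fell by 0.27 ± 0.06 (adjusted p = 0.0227). Another tested Fgf9 probe set differed by only -0.05, without an unadjusted p below 0.05. Bdnf and its receptor gene Ntrk2 differed by 0.12 ± 0.11 (adjusted p = 0.644) and 0.01 ± 0.05 (adjusted p = 0.943). Ptn and Fgf9 were lost without young replicates 6 or 9 (adjusted p of 0.0564 to 0.0576 for Ptn and 0.0592 to 0.0599 for Fgf9) and without the 4 arrays (adjusted p = 0.0832 and 0.062).

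Further genes were named for the size of their rise in both aged groups. Nat8f3, of the N-acetyltransferase 8 family, measured 4.35 to 5.57 (median 5.38) in the young, 5.36 to 6.81 (median 6.62) in the unimpaired and 6.05 to 7.23 (median 6.66) in the impaired group and rose by 1.31 ± 0.19 (adjusted p = 0.00117), 2.48-fold. Its family members are close paralogs. Acer2, an alkaline ceramidase, measured 3.35 to 6.39 (median 3.83) in the young, 4.71 to 6.44 (median 5.92) in the unimpaired and 4.58 to 6.78 (median 5.39) in the impaired group and rose by 1.45 ± 0.34 (adjusted p = 0.041). It exceeded the filter level of 4 on 3 of 8 young arrays and entered the test only through the 13 aged arrays, so no fold is given. Only 2 of 13 aged arrays exceeded the young range, because young replicate 5 held 6.39, while the other young arrays reached at most 4.08. Aadat, the kynurenine aminotransferase that makes kynurenic acid, measured 4.88 to 5.88 (median 5.28) in the young, 5.84 to 6.45 (median 6.02) in the unimpaired and 5.84 to 6.55 (median 6.02) in the impaired group and rose by 0.72 ± 0.13 (adjusted p = 0.00709). Plag1, a zinc finger transcription factor, measured 6.54 to 7.11 (median 6.83) in the young, 7 to 7.37 (median 7.23) in the unimpaired and 7.02 to 7.36 (median 7.22) in the impaired group and rose by 0.41 ± 0.08 (adjusted p = 0.0126). The sizes of the remaining rises were 0.51 ± 0.12 for Thrsp, a regulator of lipid synthesis, 0.39 ± 0.09 for Mical1, which oxidizes actin filaments, and 0.52 ± 0.12 for LOC100911253 (adjusted p = 0.0428, 0.033 and 0.0405). With 1 array left out these calls were often lost. Acer2 stayed called in 6 of 21 fits, those without young replicate 5 or unimpaired replicates 6 or 7 or impaired replicates 3, 4 or 8 (adjusted p of 0.0554 to 0.0902 otherwise). Thrsp stayed called in 6 of 21, without young replicates 4 or 5 or unimpaired replicates 1 or 3 or impaired replicates 6 or 8 (adjusted p of 0.0502 to 0.0969 otherwise), and LOC100911253 in 4 of 21, without young replicate 1 or unimpaired replicate 6 or impaired replicates 3 or 4 (adjusted p of 0.0511 to 0.0901 otherwise). Mical1 was lost without young replicates 2, 3, 6 or 9 or aged unimpaired replicates 3, 6 or 8 or aged impaired replicate 1 (adjusted p of 0.0501 to 0.0752). Without the 4 arrays Acer2 had an adjusted p of 0.00316, while Thrsp, Mical1 and LOC100911253 were not called (adjusted p = 0.0833, 0.0597 and 0.141).

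Falls outside the groups were led by Ptpro, a receptor tyrosine phosphatase of neurons. It measured 6.99 to 8.17 (median 7.56) in the young, 5.35 to 6.94 (median 6.74) in the unimpaired and 6.17 to 7.08 (median 6.72) in the impaired group and fell by 0.997 ± 0.19 (adjusted p = 0.0121). L3mbtl3, a chromatin protein that reads methylated lysines, measured 4.80 to 5.66 (median 5.30) in the young, 3.59 to 4.78 (median 4.40) in the unimpaired and 3.64 to 5.01 (median 4.57) in the impaired group and fell by 0.91 ± 0.20 (adjusted p = 0.0249). Ddah1, which degrades an inhibitor of nitric oxide synthesis, measured 7.94 to 8.30 (median 8.17) in the young, 7.47 to 7.84 (median 7.73) in the unimpaired and 7.27 to 8.17 (median 7.64) in the impaired group and fell by 0.47 ± 0.09 (adjusted p = 0.0104), with 12 of 13 aged arrays below the young range. Trib2, a pseudokinase, measured 8.40 to 8.84 (median 8.71) in the young, 8.23 to 8.46 (median 8.27) in the unimpaired and 8.14 to 8.40 (median 8.34) in the impaired group and fell by 0.37 ± 0.05 (adjusted p = 0.00133), by -0.37 in each aged group. Falls without overlap were found for Mpzl1, a transmembrane glycoprotein related to myelin protein zero (-0.45 ± 0.09, adjusted p = 0.0187), Ralyl, a putative RNA-binding protein (-0.39 ± 0.08, adjusted p = 0.0142), and Ggh, a hydrolase of folate polyglutamates (-0.27 ± 0.04, adjusted p = 0.00476). The glutaminyl cyclase gene Qpct differed by -0.52 ± 0.11, the linker histone gene H1f2 by -0.43 ± 0.09, the ubiquitin-like gene Ubl4a by -0.46 ± 0.10 and D430041D05Rikl by -0.45 ± 0.08 (adjusted p = 0.0196, 0.0207, 0.029 and 0.0049). Another tested probe set each of Ubl4a and D430041D05Rikl differed by only -0.03 and -0.01, without an unadjusted p below 0.05. Qpct exceeded the filter level of 4 on 7 of 8 young arrays and 0 of 13 aged arrays, so it entered the test only through the young group. Without young replicate 9 the calls of Qpct (adjusted p = 0.0511), H1f2, Ubl4a and L3mbtl3 were lost. H1f2 was also lost without young replicate 6 (adjusted p of 0.0524 to 0.0561 over both), and Ubl4a (adjusted p of 0.0522 to 0.0736) and L3mbtl3 (adjusted p of 0.051 to 0.0665) without young replicates 3 or 6. Without the 4 arrays Qpct, Ubl4a and L3mbtl3 had adjusted p values of 0.0687, 0.108 and 0.0678.

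Of the 62 called probe sets named here, 22 passed in every alternative that tested them, apart from the stricter thresholds. Pcdhb17 is among them but could not be tested with the filter above 6. The 22 measured Bmp6, Cd302, Ctsz, D430041D05Rikl, Ddah1, Fstl5, Glra2, Gstp1, Mpeg1, Nat8f3, Nfasc, Nrep, Pcdhb17, Pdyn, Plag1, Ptpro, Sema3c, Slco1c1, Sox4, Tfrc, Trib2 and Tubb2b. With arrays of the same replicate number treated as a block, 34 of the 62 were lost, the most of any of these alternatives (adjusted p of 0.0541 to 0.215). Without a filter on level 24 were lost (adjusted p of 0.0501 to 0.103), among them C1qa, Ccn2, Nid1, Plxna4, Mgst1 and Fcer1g. Without the 4 arrays 23 were lost (adjusted p of 0.0502 to 0.168). Leaving out young replicate 9 lost 23 and leaving out young replicate 6 lost 22. With the aged arrays pooled 7 were lost: Arpp21, Cldn11, Pacsin3, Ppp2r5e, Ptn, Tspan2 and Wwc2. Array weights lost 8: Arpp21, L3mbtl3, LOC100911253, Pacsin3, Ptn, Thrsp, Ubl4a and Wwc2. Median centring lost 3: Acvr2a, Gdf11 and Wwc2. None of the 62 reversed its direction in any of the alternatives run.

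Many gene groups held no call for age. By limma's adjusted p 0 of 67 oxidative phosphorylation genes, 0 of 38 cytosolic ribosomal protein genes, 0 of 42 heat shock and chaperone genes, 0 of 24 synaptic vesicle genes and 0 of 24 potassium channel genes were called. At an unadjusted p below 0.05 the counts were 4, 0, 10, 2 and 5, against 14.6% of all probe sets. Intervals show how narrowly some of these were measured: 66 of 67 oxidative phosphorylation genes, 38 of 38 ribosomal protein genes and 20 of 24 synaptic vesicle genes had a 95% interval within ±0.3. The median of the oxidative phosphorylation genes was -0.03, with 59 of 67 below 0, and became -0.01 after median centring. Of the heat shock and chaperone genes 32 of 42 lay below 0, with a median of -0.06, led by the endoplasmic reticulum chaperones Dnajc3 at -0.38 ± 0.10 (adjusted p = 0.0842) and Hspa5 at -0.28 ± 0.08 (adjusted p = 0.0842). Of 19 measured activity-induced genes 0 were called and 2 had an unadjusted p below 0.05, and Arc, Egr1 and Homer1 differed by 0.21 ± 0.18 (adjusted p = 0.631), -0.11 ± 0.11 (adjusted p = 0.699) and -0.17 ± 0.07 (adjusted p = 0.227). Of 20 glucocorticoid-responsive genes 0 were called, 8 had an unadjusted p below 0.05 (14.6% of all probe sets) and 13 were positive with a median of 0.08, or -0.01 without the 4 arrays. Of these Fkbp5 differed by 0.27 ± 0.07 (adjusted p = 0.0562) and the receptor gene Nr3c1 by -0.07 ± 0.08 (adjusted p = 0.747). Of 19 circadian clock genes 0 were called and 1 had an unadjusted p below 0.05. Of 28 cholesterol genes only Npc2 was called, and of 22 sphingolipid genes only Acer2 and Ugt8. Acer2 entered that count only through the aged arrays.

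**Figure D3:**
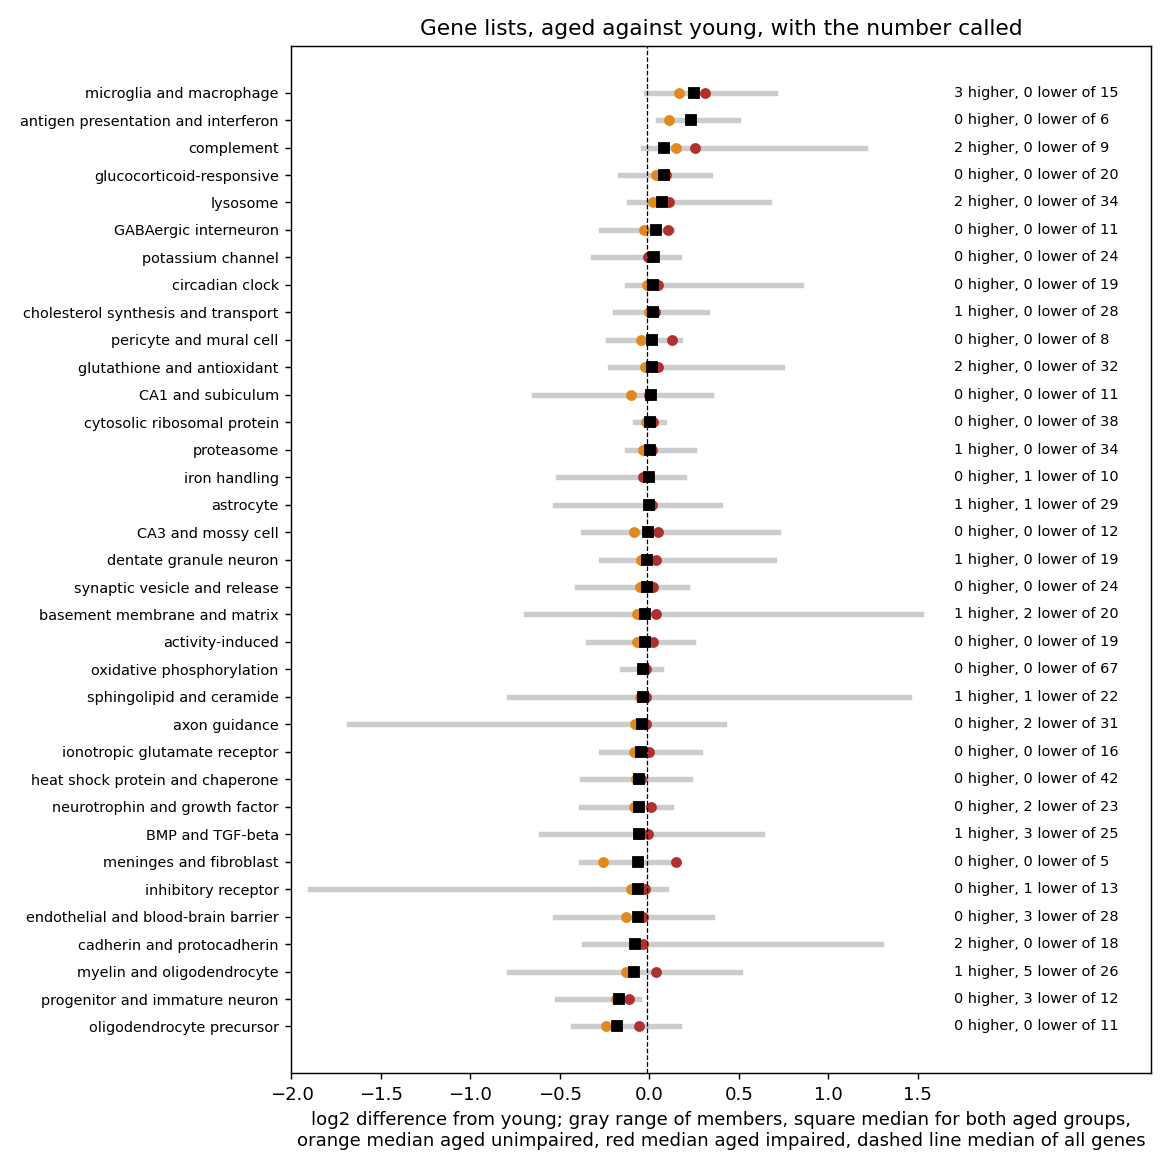
Gene lists with at least 5 measured genes (rows) and their log2 difference from young (x axis). Gray bars span the members, squares are medians for the mean of both aged groups, orange and red points medians for aged unimpaired and aged impaired rats, and the dashed line is the median of all genes at -0.01. The microglia list lies highest at 0.25 and the oligodendrocyte precursor list lowest at -0.18.

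Changes common to both aged groups were defined as calls in which each aged group differed from young in the same direction at an unadjusted p below 0.05. Of the 168 calls 162 (1.07% of those tested) met this, 60 higher (0.395%) and 102 lower (0.672%). Both differences use the same young arrays, so their likeness is no independent evidence. Without young replicate 6 the count was 87, without young replicate 9 it was 90, and without the 4 arrays 86. For the higher calls the median difference was 0.42 in impaired and 0.37 in unimpaired rats, and for the lower calls -0.27 and -0.35. Over all probe sets impaired rats lay above unimpaired rats in 72.4% of cases, by a median of 0.05. Among the calls this held for 62.3% of the higher and 65.4% of the lower ones.

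The aged groups themselves did not separate at the adjusted threshold. Impaired minus unimpaired gave 0 calls among 15177 probe sets in limma (lowest adjusted p = 0.129), with 2199 (14.5%) at an unadjusted p below 0.05. Without unimpaired replicate 1 there was 1 call and without unimpaired replicate 7 there were 4. Among the 168 age calls 30 (17.9%) had an unadjusted p below 0.05, and in 142 the 95% interval of the difference between the aged groups lay within ±0.5. For single genes that interval was -0.16 to 0.15 for Tubb2b, -0.14 to 0.14 for Trib2 and -0.20 to 0.09 for Slco1c1. It was wider for Acer2 (-1.11 to 0.66) and Ccn2 (-0.07 to 1.62), for which these arrays cannot place the groups relative to each other.

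**Figure D4:**
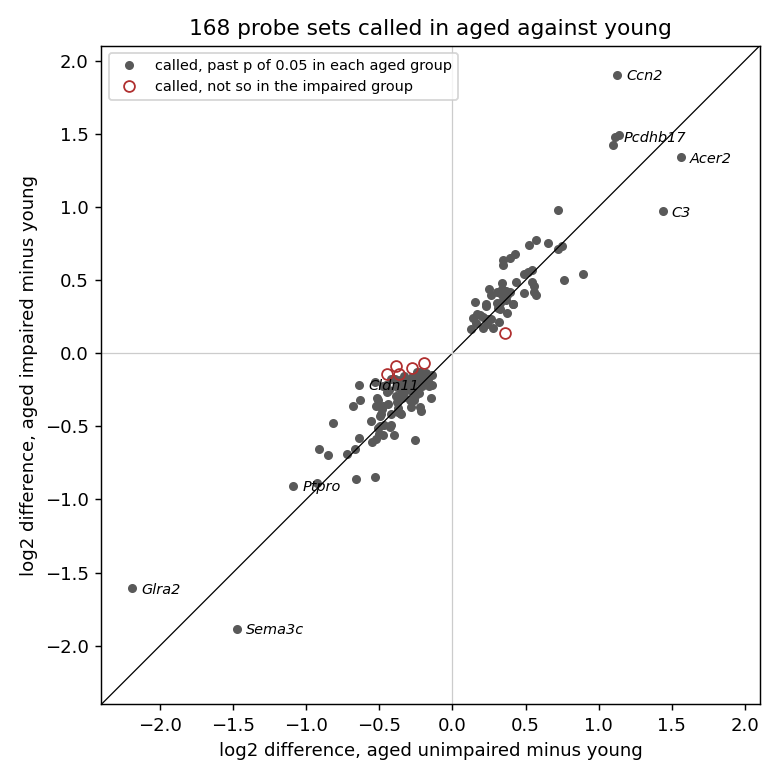
For the 168 probe sets called for age, log2 difference from young in aged unimpaired (x axis) and aged impaired rats (y axis), with the line of equality. Open circles are the 6 calls in which the impaired group alone did not reach an unadjusted p of 0.05. Both axes use the same 8 young arrays, so closeness to the line is no independent evidence.

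In 6 calls the difference of the impaired group from young did not reach an unadjusted p of 0.05, and 4 of these have a gene symbol. Arpp21, a cyclic AMP-regulated phosphoprotein, measured 9.49 to 10 (median 9.67) in the young, 9.09 to 9.44 (median 9.23) in the unimpaired and 9.32 to 9.78 (median 9.52) in the impaired group, with a difference from young of -0.45 in unimpaired and -0.14 in impaired rats (unadjusted p = 0.0831 in the latter). The 2 other tested Arpp21 probe sets did not have the sign of the call, at 0.05 and 0.31, 1 of them with an unadjusted p below 0.05. Of 2 other Wwc2 probe sets, at -0.25 and 0.23, 1 had the sign of the call. Wwc2 differed by -0.39 and -0.09, and Ppp2r5e, a regulatory subunit of protein phosphatase 2A, by -0.37 and -0.14. Pacsin3, a membrane-bending protein, differed by 0.36 and 0.13. Between the aged groups none of the 4 passed the adjusted threshold (adjusted p of 0.134 to 0.206). Their calls for age were lost in most fits with 1 array left out. Arpp21 stayed called without young replicates 1, 2 or 3 or unimpaired replicates 1 or 7 or impaired replicates 4, 7 or 8 (adjusted p of 0.0517 to 0.0828 otherwise), Wwc2 without young replicates 2 or 4 or unimpaired replicate 1 or impaired replicate 8 (adjusted p of 0.0562 to 0.114 otherwise), Ppp2r5e without young replicates 2 or 5 or unimpaired replicates 4, 6 or 8 or impaired replicate 1 (adjusted p of 0.0503 to 0.0902 otherwise) and Pacsin3 without unimpaired replicate 1 or impaired replicates 4 or 8 (adjusted p of 0.0508 to 0.114 otherwise). Without the 4 arrays none of them was called (adjusted p = 0.15, 0.168, 0.119 and 0.0967).

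Single aged animals differed in how far they left the young range. Of the 61 higher probe sets, 37 to 47 exceeded every young array on an unimpaired array and 34 to 56 on an impaired array. Of the 107 lower probe sets, 86 to 93 lay below every young array on an unimpaired array and 60 to 84 on an impaired array. Impaired replicate 2 had the most higher probe sets beyond the young range, 56, and impaired replicate 7 the fewest lower ones, 60. Both are among the 4 arrays highest in meningeal markers, whose part in these counts was not tested. A young array set against the other young arrays passed their range in 1 to 21 of the higher and 2 to 24 of the lower probe sets. The probe sets were chosen with these same arrays, so the counts describe them and test nothing.

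**Figure D5:**
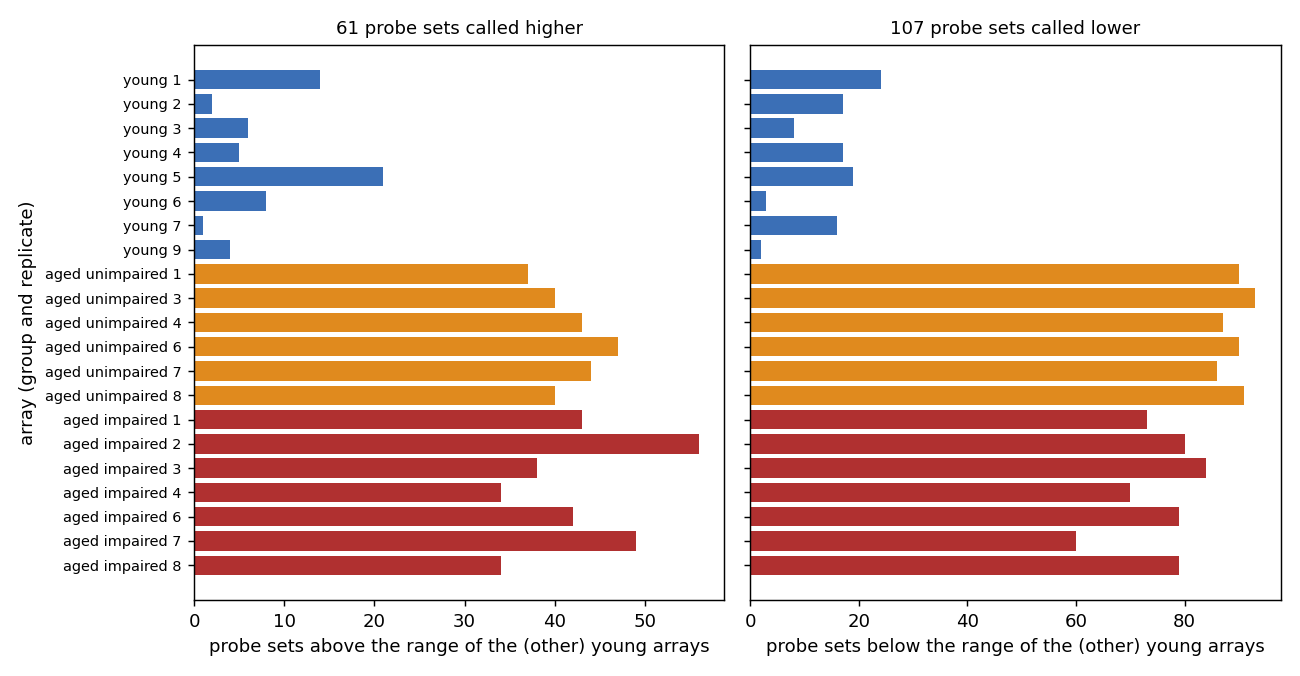
Number of called probe sets (x axis) that lay beyond the range of the young arrays on each array (rows), above it for the 61 higher (left) and below it for the 107 lower probe sets (right). Young arrays are compared with the other 7 young arrays. Every aged array reaches at least 34 on the left and 60 on the right.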

How the data were processed

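The authors' deposited values are log2 probe set levels. The submitters' processing notes name GCRMA (version not given in the sources used here). GCRMA corrects background by probe sequence and normalizes all arrays together, so the values of dim probe sets depend on its background model. Of 31099 probe sets, 57 controls were removed, and 15177 with a log2 level above 4 on at least 6 arrays were tested. The arrays' number limits precision. Gene symbols came from the platform annotation: 20826 probe sets have 1 symbol, 436 several and 9780 none.

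The 3 groups were fitted with limma 3.58.1 (R 4.3.3, lmFit and eBayes, 18 residual degrees of freedom), and the contrast was the mean of both aged groups minus young. Errors written ± are moderated standard errors. The Benjamini-Hochberg adjustment ran over all tested probe sets, and calls have an adjusted p below 0.05. In simulated data with 15177 probe sets this comparison recovered 33 of 50 changes of 0.3, 48 of 50 of 0.6 and 50 of 50 of 1, with 7 false calls of 188. Changes below 0.3 were not simulated, although 16 higher and 51 lower calls were under 0.3. The share of simulated false calls need not hold for the real calls, which ranged from 89 to 239 with 1 array left out. Each of 8737 genes entered the lists through its probe set of highest mean level. List counts cover only members that passed the filter on level. Tissue lists were compared by an exact two-sided permutation test of arrays (scipy 1.17.1). Promoters, with the assembly GRCr8, came from RefSeq and the figures from matplotlib 3.10.9.

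Genes were named by rule: the 20 higher and 20 lower common calls (1 symbol, highest-mean called probe set) with the largest value in the aged group that moved less, all calls without overlap, up to 4 called members per list by p, the called but not common genes, and the granule neuron markers Prox1, Calb1 and Dsp. List members without a call, and Qdpr, were chosen after their values were seen. The members and lists were chosen with earlier results of these data known.

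Alternatives were no filter and a filter above 6, median centring, quantile normalization, 1 pooled aged group, array weights, a trended robust fit, a replicate block, each array left out, the arrays with meningeal signal left out, and stricter thresholds. Leaving out young replicate 9 also covers its unusual place in the series.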

Additional observations from a re-analysis of the deposited data

Results flagged for a closer look

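Of 195 groups of values tested, 10 had 1 array far from the rest of its group by Dixon's ratio, where chance alone gives about 9.75. Among young arrays these were Acer2 on young replicate 5 (6.393, others 3.352 to 4.083), Tfrc on young replicate 5 (10.46, others 10.71 to 10.93) and Nat8f3 on young replicate 9 (4.355, others 5.111 to 5.57). Among unimpaired arrays replicate 6 was low for Sema3c (6.159), Col4a5 (4.176) and Mpzl1 (6.475) and high for Npc2 (10.8). Replicate 4 was high for Gfap (13.21) and replicate 8 for Trib2 (8.464). Among impaired arrays replicate 8 was high for Aadat (6.554, others 5.841 to 6.129). Leaving out each of these arrays alone kept the age call of the gene concerned.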

How the results depend on the processing

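The 168 calls became 90 without a filter on level (31 higher, 59 lower, 90 common), 86 without the 4 arrays rich in meningeal markers (34 higher, 52 lower, 86 common), 35 at an adjusted p below 0.01 (11 higher, 24 lower, 35 common) and 40 with a difference of at least 0.5 (21 higher, 19 lower, 40 common). Median centring gave 116 and quantile normalization 126 higher calls. With 1 array left out the calls ranged from 89 to 239, the higher calls from 33 to 98, the lower from 56 to 141 and the common calls from 87 to 230. Calls between the aged groups ranged from 0 to 4, and probe sets without overlap from 13 to 26, or 36 without the 4 arrays. The 62 called probe sets named in the text kept their direction in all settings run. Over all 22 meningeal markers the list mean was higher in aged arrays by 0.0521, against -0.0889 over the 5 that passed the filter, a setting added after seeing the data (adjusted p = 0.971).

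The labels do not say whether arrays of the same replicate number were handled together, and the values do not settle it. Same-number arrays of different groups correlated at -0.118 to 0.2 (4 of 17 pairs above 0.1). Their median was -0.0112, against -0.0036 for pairs of other numbers, while 7 of 19 arrays correlated best with their own number. With a replicate block 76 probe sets were called, 49 of them among the 168, with 45 higher, 31 lower and 76 common, and 34 of the 62 named calls were lost (adjusted p of 0.0541 to 0.215). Array number, age range and the unrecorded batches limit all values, and probe sets near the filter level have no firm fold.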

Other observations

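Other called genes of known function lie outside the naming rule and were chosen after their values were seen. Tspo, the mitochondrial translocator protein that is raised in reactive glia, rose by 0.47 ± 0.09 (adjusted p = 0.0139), the secreted glycoprotein gene Chi3l1 by 0.27 ± 0.06 (adjusted p = 0.0359), the phospholipase gene Gpld1 by 0.32 ± 0.07 (adjusted p = 0.0213) and the mitochondrial kinase gene Pink1 by 0.19 ± 0.04 (adjusted p = 0.0264). Marcksl1, an actin-regulating MARCKS relative, dropped by 0.41 ± 0.07 (adjusted p = 0.0049) and Elavl4, the neuronal RNA-binding protein HuD, fell by 0.35 ± 0.08 (adjusted p = 0.0359). The transcription factor Mef2a fell by 0.28 ± 0.07 (adjusted p = 0.04). Mapre1, a microtubule plus-end protein, was called lower by 3 probe sets. Fits with arrays left out were not examined for these genes one by one.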
